A study of Mus musculus with 24 samples.

Results

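The MYC network and the other factors that read the E-box were followed across 8 lines of mouse melanoma cells. The 10 genes were chosen by symbol, with earlier results of these data known. All 10 were among the 12010 genes of the expression table. They are Myc, Max, Mxi1, Mnt, Mxd4, Mlx, Mlxip, Usf1, Usf2 and Bhlhe40. The cells were B16F10-luc2, a line from a pigmented mouse melanoma that carries a luciferase reporter. The parental cells (genotype WT) were compared with the Mitf KO, Tfe3 KO and Tfeb KO, the 3 double KOs (Mitf and Tfe3, Mitf and Tfeb, Tfeb and Tfe3) and the KO of all 3 genes. These are called the MITF KO, TFE3 KO, TFEB KO, the DKOs and the TKO here. Each line was sequenced in 3 libraries, all grown in DMEM with 10% FBS and 10% CO2, without treatment. Each KO line is a clone, and the lines that lack MITF together with TFEB or TFE3 were made from the MITF KO, so that an effect of the KO and a property of the clone cannot be told apart. The MITF KO bears a frameshift and may still make a little truncated MITF. Nothing in the labels says that the 3 libraries of a line came from separate cultures, and p-values then measure the spread between these libraries only.

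The E-box is a short palindrome that is bound by pairs of basic helix-loop-helix proteins. MYC binds it together with MAX and raises transcription of genes for growth and ribosome production. The MXD proteins (here Mxi1 and Mxd4) and MNT also pair with MAX, occupy the same sites and repress. MLX pairs with MLXIP (MondoA), which senses sugar phosphates, and with some MXD proteins and MNT. USF1 and USF2 bind E-boxes as a pair in most cells, and BHLHE40 (DEC1) is a repressor of E-boxes that is controlled by hypoxia and the circadian clock. MITF, TFEB and TFE3, which were deleted here, belong to the same wider family and bind the E-box and the longer M-box and CLEAR sequences that contain it.

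The start regions of the 10 genes were searched for the core sequence that their products, MITF, TFEB and TFE3 bind. The letters CACGTG, which read the same on both strands, were searched for from 250 bases before to 50 bases after the canonical start of each gene (GENCODE vM39 on GRCm39, the build mm39). Max, Mxd4, Mlx and Bhlhe40 held them, 4 of the 10, as did 10.2% of the 11659 genes with a position. The longer TCACGTGA, which contains CACGTG, was in Mlx only, and in 1.74% of all genes. CATGTG or its reverse complement CACATG was in Mnt only, and in 8.84% of all genes. A match is a description of the letters and does not show that a factor binds there. The start regions of Mxd4 (chr5:34345191-34345490, minus strand), Bhlhe40 (chr6:108636376-108636675, plus strand) and Myc (chr15:61856977-61857276, plus strand) are shown, because these 3 genes differed most clearly with MITF status in the values that follow. The first base of the letters is at -33 for Mxd4 and at -222 for Bhlhe40, counted from the start site, and the region of Myc holds none. The whole genes lie at chr5:34331227-34345240 (Mxd4), chr6:108636626-108644502 (Bhlhe40) and chr15:61857227-61862223 (Myc), Max at chr12:76984043-77009009 and Mxi1 at chr19:53298852-53364241. Mnt lies at chr11:74721338-74736836, Mlx at chr11:100978080-100983043 and Mlxip at chr5:123532794-123595995. Usf1 lies at chr1:171238847-171247913 and Usf2 at chr7:30644673-30656800. In the start regions printed here, capitals mark CACGTG.
Mxd4: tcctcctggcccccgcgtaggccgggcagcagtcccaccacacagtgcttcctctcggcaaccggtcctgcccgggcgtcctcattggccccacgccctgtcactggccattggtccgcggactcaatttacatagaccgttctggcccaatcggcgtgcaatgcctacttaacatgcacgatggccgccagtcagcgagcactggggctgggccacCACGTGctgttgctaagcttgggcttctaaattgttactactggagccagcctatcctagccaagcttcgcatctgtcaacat
Bhlhe40: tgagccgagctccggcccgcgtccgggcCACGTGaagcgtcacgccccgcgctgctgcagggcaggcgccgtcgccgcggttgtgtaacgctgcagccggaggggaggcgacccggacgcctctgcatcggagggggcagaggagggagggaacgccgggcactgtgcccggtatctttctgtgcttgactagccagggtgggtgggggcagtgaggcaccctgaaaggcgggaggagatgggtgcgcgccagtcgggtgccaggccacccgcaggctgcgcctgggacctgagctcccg
Myc: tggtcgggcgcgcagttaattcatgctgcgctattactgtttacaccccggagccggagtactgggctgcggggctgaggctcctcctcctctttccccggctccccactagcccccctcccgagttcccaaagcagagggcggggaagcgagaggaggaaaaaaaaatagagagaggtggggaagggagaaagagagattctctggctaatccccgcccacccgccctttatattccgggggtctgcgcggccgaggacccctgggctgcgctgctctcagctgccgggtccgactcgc
For Max and Mlx, 20 bases around the letters are given, which begin at -25 and -16 from the start. Max changed in some KO lines, whereas Mlx passed the test in none of the 7 KO lines against the parental cells.
Max: gcccggtCACGTGttagggg
Mlx: gttggatCACGTGactgagc

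The libraries were made from the 3′ end of transcripts, and each held 18300902 to 26667877 reads on genes. Levels are given as CPM, the reads of a gene scaled to the size of its library, after the authors' normalisation. A read of this kind stands for a transcript whatever its length, so sums of CPM over genes are sums of transcripts. In the check of the deleted genes, Tfeb was 2.06 to 5.27 CPM in the 12 libraries of its KO lines and 7.87 to 22.7 elsewhere, and Tfe3 was 8.01 to 21.7 against 31.1 to 62.5. Mitf mRNA was 326 to 1470 CPM in its KO lines and 646 to 903 elsewhere. A count of 3′ end reads gives the level of an mRNA and does not show the edited site, for Mitf or for Tfeb and Tfe3. All 8 melanocyte markers looked up were in the table, and 7 of the 8 were lower than in the parental cells in each of the TKO and MITF/TFEB DKO lines. Of all genes, 27.9% and 27.3% fell in these lines. Markers of fibroblasts, immune, endothelial and epithelial cells were looked up too, and 7 of 18 were among the genes measured. Their summed level per library was 9.73 to 23.9 CPM with MITF and 14.4 to 45.3 without for fibroblasts, and at most 5.12 for immune, 31.6 for endothelial and 19.7 for epithelial markers. Their part in the results was not tested.

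The 10 genes spanned a wide range of levels. Usf2 had a median of 913 CPM over the 24 libraries and lay above 98.9% of the genes by mean level, and Max had 119. Mlx (41.0), Mxi1 (24.4), Mnt (15.5), Mxd4 (10.8), Bhlhe40 (10.6) and Mlxip (9.89) were intermediate. Myc had a median of 4.44 CPM, from 29 to 193 reads per library, and Usf1 of 1.40 CPM, from 7 to 91 reads. Between the lines, Mxd4 moved the most, with a range of 3.33 between the highest and lowest line mean on the log2(CPM + 1) scale, followed by Bhlhe40 (1.61), Myc (1.5) and Mxi1 (1.40). Mnt (0.43) and Mlx (0.44) moved the least.

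**Figure D1:**
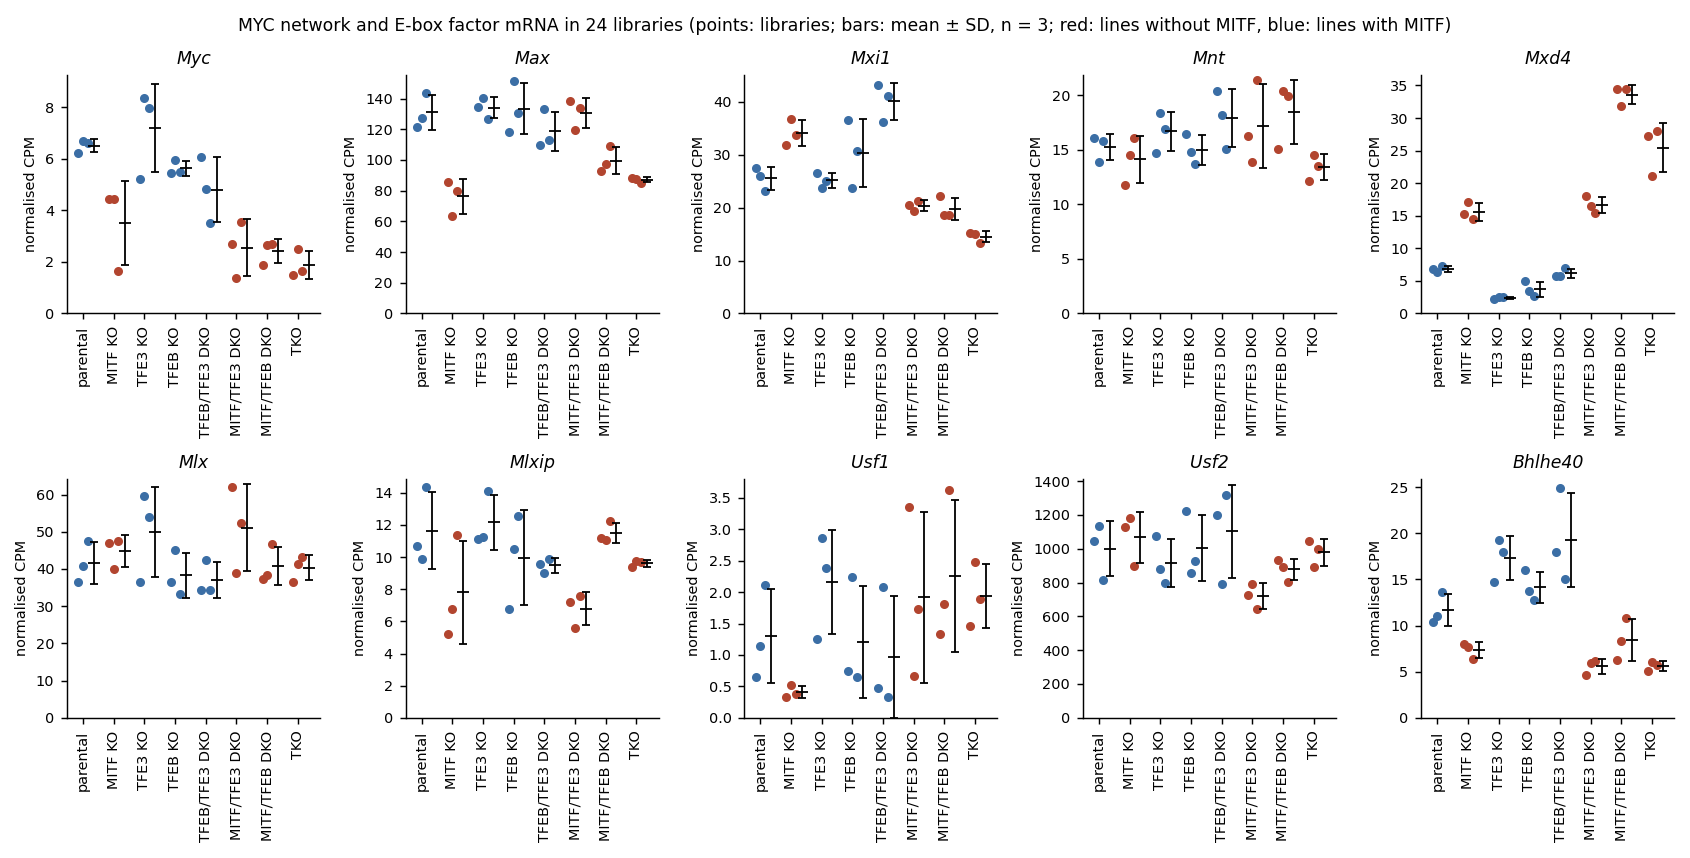
Normalised CPM (linear axis from 0, one panel per gene) of the 10 genes in the 24 libraries, by line; points are libraries, bars the mean ± SD (n = 3), red lines without MITF and blue lines with it. Mxd4 was 14.4 to 34.4 CPM in every library without MITF and 2.24 to 7.24 in every library with it, and Bhlhe40 was lower without MITF with a small overlap.

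Differences between lines were tested with limma on a log2(CPM + 1) scale, in a fit that held the 24 libraries. A gene is said to have risen or fallen when its p, adjusted by the Benjamini-Hochberg method over all 12010 genes, was under 0.05.

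Myc, which encodes the activating partner of MAX, was lowest in the cells without MITF. The parental libraries held 6.21, 6.68 and 6.61 CPM, those of the TFE3 KO 5.24, 8.35 and 7.98, those of the TFEB KO 5.43, 5.94 and 5.51, and those of the TFEB/TFE3 DKO 6.07, 4.83 and 3.53. Without MITF, Myc was lower: 4.43, 4.46 and 1.63 in the MITF KO and 1.49, 2.52 and 1.63 in the TKO. Libraries of the MITF/TFE3 DKO held 2.7, 1.37 and 3.57, while those of the MITF/TFEB DKO held 1.88, 2.64 and 2.71. The 12 libraries with MITF (3.53 to 8.35) and the 12 without it (1.37 to 4.46) thus overlapped, through replicate 3 of the TFEB/TFE3 DKO. Against the parental cells Myc fell by 0.81 on the log2 scale in the MITF KO (SE 0.25, adjusted p = 0.0149), by 1.13 in the MITF/TFE3 DKO (adjusted p = 0.00109), by 1.15 in the MITF/TFEB DKO (adjusted p = 0.000566) and by 1.40 in the TKO (adjusted p = 6.72e-05). The value for the MITF KO rests on its replicate 3, without which the change was -0.46 (adjusted p = 0.143). In the lines with MITF no change of Myc passed the test, the largest being -0.39 in the TFEB/TFE3 DKO (adjusted p = 0.385). In the order of line means, which ran from the TFE3 KO, the parental cells, the TFEB KO, the TFEB/TFE3 DKO and the MITF KO to the MITF/TFE3 DKO, then the MITF/TFEB DKO and last the TKO, only the parental cells and the TFEB KO were neighbours whose libraries did not overlap.

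Max, the shared partner of the MYC, MXD and MNT proteins, was 122, 128 and 144 CPM in the parental cells and 85.6, 63.3 and 80.0 in the MITF KO. It was 92.6, 97.2 and 109 in the MITF/TFEB DKO and 88.1, 87.8 and 85.1 in the TKO. Max stood at 138, 119 and 134 in the MITF/TFE3 DKO, within the range of the lines with MITF (110 to 151). Max therefore fell in 3 of the 4 lines without MITF. The fall was 0.78 on the log2 scale in the MITF KO (adjusted p = 5.58e-06), 0.39 in the MITF/TFEB DKO (adjusted p = 0.00416) and 0.58 in the TKO (adjusted p = 9.37e-05). The MITF/TFE3 DKO did not pass the test (log2 change 0.00 to 2 decimals, SE 0.11, adjusted p = 0.985).

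Among the repressive partners of MAX, Mxd4 had the largest changes of the 10 genes. It was 6.77, 6.32 and 7.24 CPM in the parental cells, 15.2, 17.1 and 14.4 in the MITF KO and 18.0, 16.5 and 15.5 in the MITF/TFE3 DKO. It reached 27.2, 21.2 and 28.0 in the TKO and 34.4, 31.9 and 34.4 in the MITF/TFEB DKO. In the single KOs of the other factors it lay below every parental library, at 2.24, 2.47 and 2.57 for the TFE3 KO and at 4.95, 3.47 and 2.68 for the TFEB KO. The TFEB/TFE3 DKO stood at 5.79, 5.70 and 7.0, and its libraries overlapped with the parental ones. Every library without MITF was above every library with it. The rises on the log2 scale were 1.09 in the MITF KO (SE 0.15, adjusted p = 2.97e-06), 1.18 in the MITF/TFE3 DKO (adjusted p = 1.03e-06), 1.76 in the TKO (adjusted p = 5.59e-10) and 2.15 in the MITF/TFEB DKO (adjusted p = 2.03e-11). It fell by 1.18 in the TFE3 KO (adjusted p = 5.32e-06) and by 0.75 in the TFEB KO (adjusted p = 0.00211). With only the libraries of the TFEB KO and the parental cells in the fit, the latter change kept its size but lost the call (adjusted p = 0.131). In the order of line means only the MITF/TFE3 DKO and the MITF KO, and the parental cells and the TFEB/TFE3 DKO, were neighbours with overlapping libraries. At the 3′ end Mxd4 overlaps the antisense gene Mxd4os1, which was not analysed here, and the strand setting of the authors' counting is not given in the sources used here.

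Mxi1, another MXD repressor, moved both ways. Its libraries held 27.5, 26.0 and 23.1 CPM in the parental cells, 31.9, 36.8 and 33.8 in the MITF KO and 43.1, 36.3 and 41.0 in the TFEB/TFE3 DKO. They held 15.2, 15.1 and 13.3 in the TKO, 20.5, 19.3 and 21.3 for the MITF/TFE3 DKO, and 22.2, 18.6 and 18.6 for the MITF/TFEB DKO. Mxi1 rose by 0.41 in the MITF KO (adjusted p = 0.0118) and by 0.63 in the TFEB/TFE3 DKO (adjusted p = 0.00187). It fell by 0.31 in the MITF/TFE3 DKO (adjusted p = 0.0481), by 0.35 in the MITF/TFEB DKO (adjusted p = 0.0187) and by 0.77 in the TKO (adjusted p = 1.34e-05). The rise in the MITF KO was lost without its second library or the third parental one (adjusted p = 0.0566 and 0.0654). The fall in the MITF/TFE3 DKO was lost in 5 of the 6 fits that left out 1 library, all but that without parental replicate 3 (adjusted p up to 0.162). It was also lost with a pseudocount of 5 (adjusted p = 0.0532), median-of-ratios size factors (adjusted p = 0.0523) and only the libraries of both lines (adjusted p = 0.0599). That of the MITF/TFEB DKO was lost without its replicate 2 or 3 or parental replicate 1 or 2 (adjusted p up to 0.0783). The fall in the TKO and the rise in the TFEB/TFE3 DKO kept their call without any 1 library. Mnt, the repressor that most cells express all the time, was 11.8 to 21.4 CPM over the 24 libraries and passed the test in no KO line, with adjusted p from 0.172 to 0.968. Of its 7 comparisons with the parental cells, 0 had an unadjusted p under 0.05 by limma and 0 passed by edgeR.

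Summed over Mxi1, Mnt, Mxd1, Mxd3 and Mxd4, the repressive partners came to 95.0 ± 3.1 CPM (SD, n = 3) in the parental cells and 127 ± 5.1 in the TKO. The composition differed more than the sum. Mxd4 was 6.82 to 7.71% of the sum in the parental libraries and 25.6 to 29.8% in those of the MITF/TFEB DKO. Mxd3, which is no member of the 10, was 27.9 ± 0.97 CPM in the parental cells and 59.2 ± 4.3 in the TKO. The ratio of this sum to Myc was 15.9, 13.9 and 14.2 in the parental libraries and 87.8, 48 and 78.4 in the TKO. It was 23.7, 25.1 and 66.7 in the MITF KO, 37.2, 66.6 and 28.1 in the MITF/TFE3 DKO and 61.4, 47.1 and 46.0 in the MITF/TFEB DKO. In the lines with MITF other than the parental cells it was 11.2 to 28.3. The highest of these, in the TFEB/TFE3 DKO, lay above the lowest in the lines without MITF. No test was run on the ratio, and the Myc count behind it was as low as 29 reads.

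**Figure D2:**
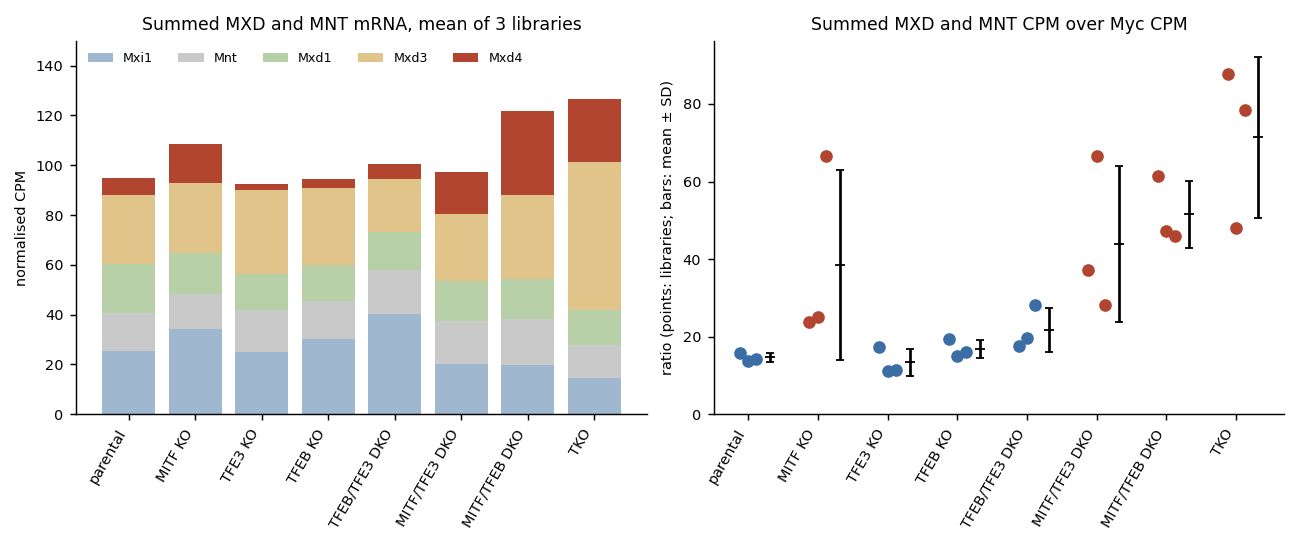
Left, mean CPM (n = 3, linear axis from 0) of the repressive MAX partners Mxi1, Mnt, Mxd1, Mxd3 and Mxd4 stacked by line; right, their sum over the CPM of Myc in each library with mean ± SD, red for lines without MITF. The ratio was 13.9 to 15.9 in the parental cells and 48 to 87.8 in the TKO, and Mxd4 took its largest share in the MITF/TFEB DKO.

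Of the sugar-sensing pair, Mlx was 33.4 to 62.0 CPM in all libraries and passed the test in none of the 7 KO lines. As for Mnt, 0 of 7 had an unadjusted p under 0.05 by limma and 0 passed by edgeR. Mlx overlaps Psmc3ip, on the opposite strand, at its 3′ end, and Psmc3ip was 14.2 to 31.3 CPM. Mlxip was 10.7, 9.87 and 14.4 CPM in the parental cells, 5.23, 6.79 and 11.4 in the MITF KO and 7.18, 5.61 and 7.59 in the MITF/TFE3 DKO. It fell by 0.57 on the log2 scale in the MITF KO (adjusted p = 0.0331) and by 0.69 in the MITF/TFE3 DKO (adjusted p = 0.00976). The first fall was -0.35 (adjusted p = 0.217) without the first MITF KO library, and was also lost without the second (adjusted p = 0.104) or the parental replicate 3 (adjusted p = 0.169). The second was lost without the second MITF/TFE3 DKO library (adjusted p = 0.0506) or the third parental one (adjusted p = 0.0625). In the MITF/TFEB DKO, at 11.2, 11 and 12.2 CPM, and in the TKO, at 9.36, 9.75 and 9.72, Mlxip did not pass the test.

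The USF pair differed greatly in level. Usf2 was 641 to 1315 CPM in the 24 libraries. It fell only in the MITF/TFE3 DKO, where it was 729, 793 and 641 CPM against 1047, 1133 and 817 in the parental cells (log2 change -0.46, SE 0.17, adjusted p = 0.0312). The call was lost without replicate 1 or 3 of the DKO (adjusted p = 0.0604 and 0.122) or the first or second parental one (adjusted p = 0.0942 and 0.140), and under quantile normalisation (-0.32, adjusted p = 0.0702). At its 3′ end Usf2 overlaps the antisense gene Gm44662, which was not analysed here. Usf1 was 0.647, 1.14 and 2.11 CPM in the parental cells and 0.330, 0.522 and 0.381 in the MITF KO, with 7 to 13 reads in the latter. It passed the test in no KO line against the parental cells, with 0 of 7 at an unadjusted p under 0.05 by limma and 0 by edgeR. With only the libraries of the MITF KO and the parental cells in the fit, Usf1 was lower in the MITF KO (-0.66, adjusted p = 0.0323). A term for the main axis of difference within lines left the change at -0.66 and gave an adjusted p of 0.00515. That axis was taken from these same libraries and went with Usf1 (r = -0.89). The term can narrow the spread but cannot move the change, so it gives no separate evidence. At its 3′ end Usf1 overlaps Tstd1 on the same strand, which was 0.0899 to 2.87 CPM, so reads of the pair may be split by the authors' counting.

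Bhlhe40, the repressor linked to hypoxia and the clock, was 10.4, 11.1 and 13.6 CPM in the parental cells. Libraries of the TFE3 KO held 14.7, 19.3 and 18.0, those of the TFEB KO 16, 13.8 and 12.7, and those of the TFEB/TFE3 DKO 18.0, 24.9 and 15. Without MITF it was 8.05, 7.67 and 6.37 in the MITF KO, 5.03, 6.09 and 5.72 in the TKO, 4.61, 5.94 and 6.17 for the MITF/TFE3 DKO, and 6.27, 8.31 and 10.8 for the MITF/TFEB DKO. The 12 libraries with MITF (10.4 to 24.9) and the 12 without it (4.61 to 10.8) overlapped only through the third MITF/TFEB DKO library. Bhlhe40 rose by 0.66 on the log2 scale in the TFEB/TFE3 DKO (SE 0.18, adjusted p = 0.0236). It fell by 0.60 in the MITF KO (adjusted p = 0.0115), by 0.44 in the MITF/TFEB DKO (adjusted p = 0.0406), by 0.94 in the TKO (adjusted p = 0.000126) and by 0.95 in the MITF/TFE3 DKO (adjusted p = 0.000212). The last 2 falls kept their call without any 1 library. The fall in the MITF KO was lost without its replicate 3 or the third parental one (adjusted p = 0.0577 and 0.0668). The fall in the MITF/TFEB DKO was -0.27 (adjusted p = 0.239) without its first library, and was also lost without its second (adjusted p = 0.0782) or parental replicate 2 or 3 (adjusted p = 0.0597 and 0.166). The rise in the TFEB/TFE3 DKO was lost without its first or second library (adjusted p = 0.0598 and 0.105) or the first or second parental one (adjusted p = 0.0949 and 0.0804). The TFE3 KO value of 0.53 missed the threshold (adjusted p = 0.0568) and passed with a pseudocount of 5 (adjusted p = 0.0444).

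**Figure D3:**
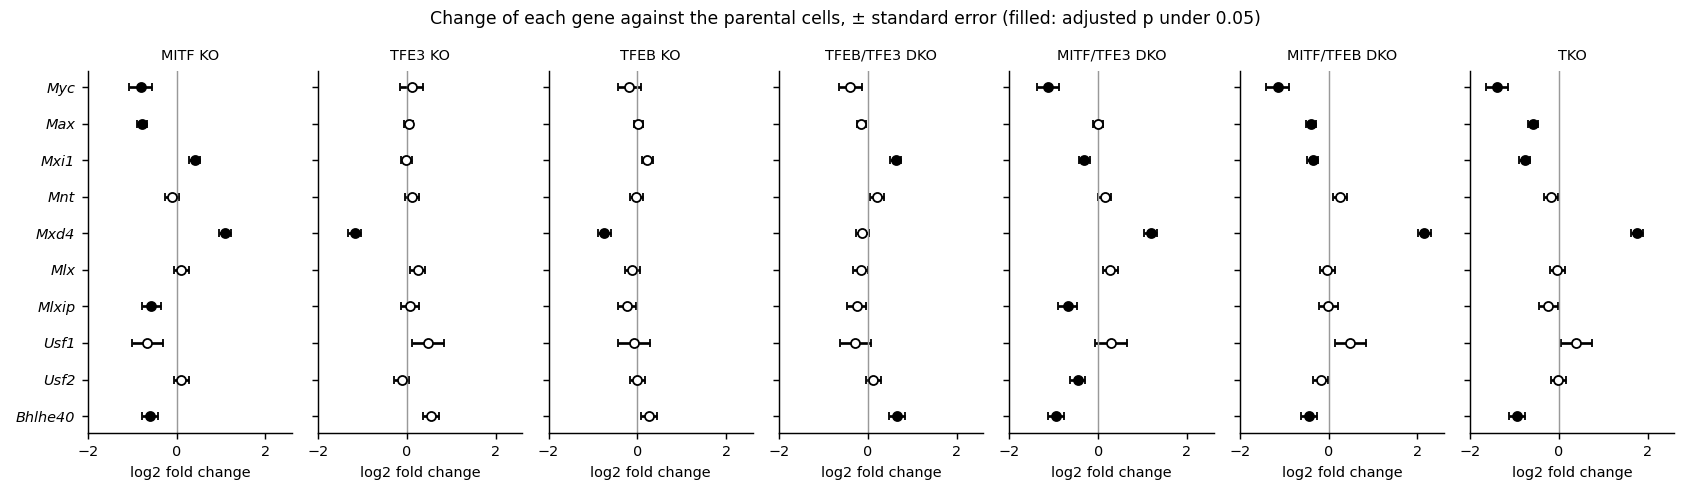
Log2 fold change of each gene against the parental cells with its standard error in the 7 KO lines (x axis, log2 units; one panel per line); filled points have an adjusted p under 0.05. Myc and Bhlhe40 were lower and Mxd4 higher in all 4 lines without MITF, and Mxd4 was lower in the TFE3 KO and the TFEB KO.

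Counted over the 10 genes, 2 rose and 4 fell in the MITF KO, where 20.1% of all genes rose and 17.8% fell. In the MITF/TFE3 DKO 1 rose and 5 fell (20.2% and 21.7% of all genes), in the MITF/TFEB DKO 1 rose and 4 fell (28.8% and 27.3%), and in the TKO 1 rose and 4 fell (28.3% and 27.9%). In the TFE3 KO 1 fell, against 4.50% of all genes that rose and 7.78% that fell. In the TFEB KO 1 fell (2.25% and 2.59% of all genes), and in the TFEB/TFE3 DKO 2 rose (4.72% and 4.09%). The study called a gene at a 2-fold difference with a p under 0.05 before adjustment; by that rule the MITF KO had 1 of the 10 genes (Mxd4), against 6.28% of all genes. The TFE3 KO had 1 (Mxd4; 1.71% of all genes), while the TFEB/TFE3 DKO and the TFEB KO had 0 (0.958% and 0.783%). The MITF/TFE3 DKO, the MITF/TFEB DKO and the TKO had 2 each, Myc and Mxd4 (5.87%, 13.7% and 14.7%). All 7 comparisons share the parental libraries.

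Averaged over the 4 backgrounds, the loss of MITF changed 6 of the 10 genes, against 68.8% of all genes. Mxd4 rose by 2.06 on the log2 scale (SE 0.07, adjusted p = 3.57e-17), and Bhlhe40 fell by 1.09 (adjusted p = 2.43e-10), Myc by 1.0 (adjusted p = 2.83e-07), Mxi1 by 0.47 (adjusted p = 5.32e-07), Max by 0.42 (adjusted p = 4.51e-07) and Mlxip by 0.27 (adjusted p = 0.0237). The averages for Mxi1 and Mlxip join opposite directions. With the loss of MITF, Mxi1 changed by 0.41 where TFEB was present and by -0.58 in the TFEB KO background. Mlxip changed by -0.57 and 0.23 there. Max changed by -0.78 where TFE3 was present and by -0.04 in the TFE3 KO background. The call for Mlxip was lost without replicate 1 of the MITF KO, 3 of the TFEB KO or 3 of the parental cells (adjusted p up to 0.0548). Over the 8 line means, 4 with MITF against 4 without, an exact two-sided permutation test can give no p below 0.0286. The lines without MITF are the MITF KO and lines made from it. The split by MITF is thus also a split by ancestry, and this test cannot tell the 2 apart. Mxd4, Myc and Bhlhe40 reached it, 3 of the 10, as did 26.1% of all genes, while Max had a p of 0.0571 and Mxi1 and Mlxip each 0.171. At this size no gene of the table passed adjustment over all genes by that test, the lowest adjusted p being 0.109. The loss of TFEB changed 3 of the 10 (47.1% of all genes): Mxd4 rose by 0.49 (adjusted p = 8.71e-06), Myc fell by 0.32 (adjusted p = 0.0442) and Mlx fell by 0.24 (adjusted p = 0.0231). The average for Mxd4 joins opposite directions, since it fell by 0.75 in the TFEB KO against the parental cells and was higher by 1.06 in the MITF/TFEB DKO than in the MITF KO. Over the line means the exact permutation test gave 0.6 for Mxd4, 0.457 for Myc and 0.0286 for Mlx. The call for Myc was lost in 16 of the 24 fits that left out 1 library, and that for Mlx without the first MITF/TFE3 DKO library (adjusted p = 0.0502). The loss of TFE3 changed 1 of the 10 (13.3% of all genes), Mxi1, which fell by 0.19 (adjusted p = 0.0481), a call lost in 17 of the 24 such fits and by the exact permutation test over line means (p = 0.6).

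Within the cells that lack MITF, the further loss of TFEB or TFE3 was compared directly. Going from the MITF KO to the MITF/TFEB DKO, 5 of the 10 changed, against 49.0% of all genes. Mxd4 rose by 1.06 (adjusted p = 2.46e-06), Usf1 by 1.15 (adjusted p = 0.0101), Mlxip by 0.57 (adjusted p = 0.0269) and Max by 0.39 (adjusted p = 0.00521), and Mxi1 fell by 0.76 (adjusted p = 2.26e-05). Without the second MITF KO library the rises of Max and Mlxip were lost (adjusted p = 0.0588 and 0.0877), and that of Mlxip also without the first (adjusted p = 0.192). Without the third MITF/TFEB DKO library those of Mlxip and Usf1 were lost (adjusted p = 0.0791 and 0.0741). From the MITF KO to the MITF/TFE3 DKO, 4 changed (37.7% of all genes): Max rose by 0.78 (adjusted p = 9.88e-06) and Usf1 by 0.94 (adjusted p = 0.0398), and Mxi1 fell by 0.72 (adjusted p = 0.000107) and Usf2 by 0.56 (adjusted p = 0.0118). The rise of Usf1 was 0.60 (adjusted p = 0.237) without the first MITF/TFE3 DKO library and was lost in 4 other fits that left out 1 library. The fall of Usf2 was lost without the second MITF KO library (adjusted p = 0.0617) or the third MITF/TFE3 DKO library (adjusted p = 0.0566). Mxd4 did not differ beyond its error there (log2 change 0.09, SE 0.15).

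The TKO differed from the MITF/TFEB DKO in 1 of the 10 genes (12.4% of all genes), with Mxi1 lower by a log2 change of -0.42 (adjusted p = 0.0261). That call was lost without the first MITF/TFEB DKO library (adjusted p = 0.138) or TKO replicate 2 or 3 (adjusted p = 0.0525 and 0.127). It differed from the MITF/TFE3 DKO in 4 (50.8% of all genes). Mxd4 was higher by 0.57 (adjusted p = 0.00224) and Usf2 by 0.44 (adjusted p = 0.0318), and Max fell by 0.58 (adjusted p = 0.000121) and Mxi1 by 0.46 (adjusted p = 0.00335). The difference in Usf2 was lost in 4 fits that left out 1 library, with adjusted p up to 0.122.

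Whether the change with the loss of MITF depended on a partner was tested as an interaction. With TFEB as the partner, 3 of the 10 genes passed (35.1% of all genes). Mxd4 changed by 1.09 with the loss of MITF where TFEB was present and by 2.90 where it was absent, a difference of 1.82 (SE 0.21, adjusted p = 3.00e-07). Mxi1 went from 0.41 to -0.58 (difference -0.99, adjusted p = 0.000114) and Mlxip from -0.57 to 0.23 (difference 0.79, adjusted p = 0.0377). With TFE3 as the partner, 4 passed (20.2% of all genes). Mxd4 went from 1.09 to 2.37 (difference 1.28, adjusted p = 7.86e-05), Max from -0.78 to -0.04 (difference 0.74, adjusted p = 0.00125), Mxi1 from 0.41 to -0.29 (difference -0.70, adjusted p = 0.00574) and Bhlhe40 from -0.60 to -1.48 (difference -0.88, adjusted p = 0.0161). For Myc neither difference passed (-0.15 with an SE of 0.36, and -0.43 with an SE of 0.36). With TFEB as the partner, the difference in Usf1 missed the threshold (1.22, SE 0.50, adjusted p = 0.0617). It passed by edgeR (2.51, adjusted p = 0.0462) and with a pseudocount of 0.25 (1.96, adjusted p = 0.0450), on 7 to 91 reads per library. The difference in Mlxip was lost in 7 of the 12 fits that left out 1 library, by edgeR (adjusted p = 0.0614) and under quantile normalisation (adjusted p = 0.0682). That in Bhlhe40 was lost without the first MITF/TFE3 DKO library (adjusted p = 0.0511).

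The genes that lie around each of the 10 on its chromosome were examined as well. For each gene the median change of the 100 nearest genes with a mean of at least 5 CPM was taken. Around Mxi1 this median was -0.76 for the MITF/TFEB DKO and -0.80 for the TKO, against -0.35 and -0.77 for Mxi1 itself, while the median of all genes was 0.01 in both lines. Around Max it was -0.47 and -0.40, against -0.39 and -0.58 for Max. Around Usf1 it was 0.59 and 0.71, against 0.49 and 0.39 for Usf1, whose own change passed in neither line. In these stretches the neighbours of Mxi1, Max and Usf1 moved in the same direction as the gene. The part of this in the falls of Mxi1 and Max was not tested. Around Mxd4 the medians were -0.11 and -0.09 and around Myc -0.11 and -0.09, while Mxd4 itself moved by 2.15 and 1.76 and Myc by -1.15 and -1.40. Around Bhlhe40 the medians were -0.25 and -0.22. In the MITF/TFE3 DKO the median was -0.35 around Mxi1 (the gene -0.31), -0.31 around Mlxip (-0.69) and -0.29 around Usf2 (-0.46). It was -0.27 around Mxd4 (1.18) and -0.20 around Myc (-1.13) there, and the part of the neighbours in the falls of Mxi1, Mlxip and Usf2 was not tested. In the MITF KO the median was -0.29 around Max and -0.20 around Mxi1, which itself rose there. Around Usf1 it was 0.12 in the MITF KO. The part of the neighbours in the rise of Usf1 from the MITF KO to the MITF/TFEB DKO was not tested.

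**Figure D4:**
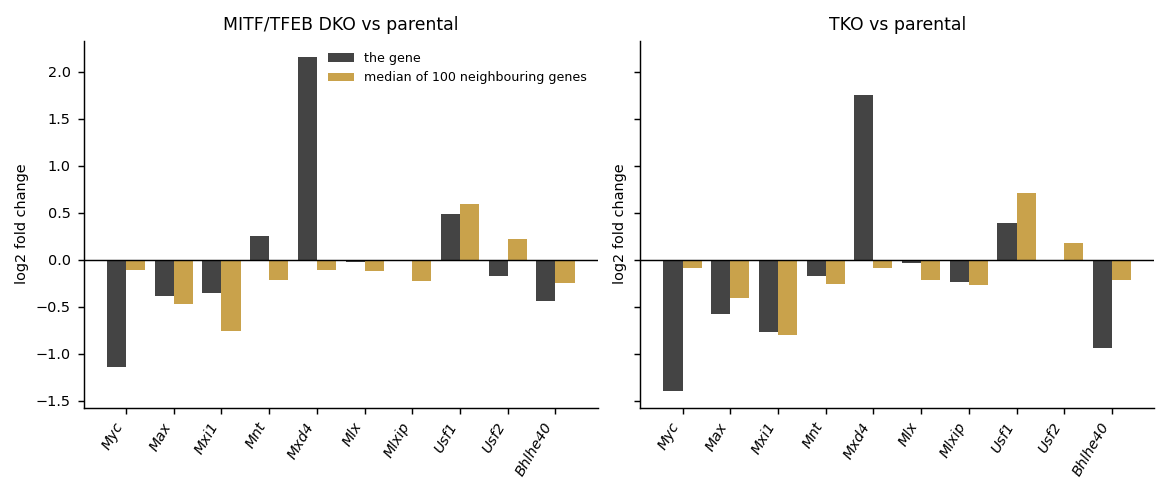
Log2 fold change against the parental cells of each gene (dark bars) and the median of its 100 neighbouring genes (light bars), left for the MITF/TFEB DKO and right for the TKO, in log2 units with bars from 0. The neighbours of Mxi1 were as low as -0.80, while those of Mxd4 and Myc stayed within 0.11 of 0 in these lines.

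The 10 genes vary among themselves within a line too. The main axis of difference between libraries of the same line took 51.5% of the variance within lines, and the second took 9.28%. Over the 24 libraries its scores correlated with the deviations of Mlx (r = -0.90), Usf1 (-0.89), Usf2 (0.79), Max (-0.77) and Mxi1 (0.74), but only weakly with those of Mxd4 (0.11), Mlxip (-0.32) and Myc (-0.36). These are descriptions only, and 33.3% of 9539 genes had an absolute correlation of at least 0.7. The part of depth and preparation in this axis was not tested. The spread of Mlx, Usf1 and Usf2 between libraries of a line thus moved together with many other genes.

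Of the rest of the MYC network, 13 of the 16 genes listed were in the table. This list and those of the next paragraphs were chosen with earlier results of these data known. In the MITF KO 0 rose and 6 fell, against 20.1% and 17.8% of all genes. In the TKO 3 rose and 6 fell (28.3% and 27.9% of all genes), for the MITF/TFE3 DKO 0 and 7 (20.2% and 21.7%) and for the MITF/TFEB DKO 2 and 6 (28.8% and 27.3%), while limma called 0 in the TFE3 KO and the TFEB KO (4 each at an unadjusted p under 0.05, and 0 by edgeR). In the TFEB/TFE3 DKO 1 rose and 3 fell (4.72% and 4.09%). Mxd3, a repressive MAX partner, rose by 1.06 in the TKO and did not pass the test in the MITF KO (0.01). Mycbp, which encodes a protein that binds MYC, fell by 0.97 to 14.8 ± 1.0 CPM in the MITF/TFEB DKO, from 30 in the parental cells. It fell in other lines too, by 0.66 in the TKO. The ubiquitin ligase gene Huwe1 and Cip2a, whose product shields MYC from a phosphatase, fell by 0.76 and 0.75 in the MITF/TFE3 DKO. Huwe1 also fell by 0.48 in the MITF/TFEB DKO, whereas Cip2a rose by 0.25 in the TKO (adjusted p = 0.0311). The kinase gene Pim1 rose by 0.60 in the TFEB/TFE3 DKO and fell by 0.77 in the MITF/TFEB DKO.

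MYC target genes for ribosome biogenesis, nucleotide and polyamine synthesis and growth were counted the same way, and their median was below that of all genes in the 4 lines without MITF and in the TFEB/TFE3 DKO. Of 61 in the table, 40 fell and 2 rose in the MITF KO (median log2 change -0.45, against 0.00 over all genes), where 17.8% of all genes fell. In the MITF/TFE3 DKO 28 fell and 4 rose (median -0.22, against 0.02; 21.7% of all genes fell), in the MITF/TFEB DKO 41 and 5 (-0.45, against 0.01, with 27.3% falling) and in the TKO 40 and 5 (-0.35, against 0.01, with 27.9% falling). In the TFEB/TFE3 DKO 16 fell and 1 rose (-0.17, against -0.02, with 4.09% falling), in the TFE3 KO 0 fell and 5 rose (0.12, with 4.50% rising), and in the TFEB KO 2 fell and 2 rose (0.03). Npm1, a nucleolar chaperone of ribosome assembly, was 653 ± 62 CPM in the MITF/TFEB DKO against 1906 in the parental cells, and Nolc1, a nucleolar phosphoprotein, was 152 ± 19 against 333. Gnl3 (nucleostemin) fell from 177 CPM to 73.7 ± 1.9 in the TKO, and Rrp12, of ribosome export, from 31.6 to 14.3 ± 1.0. Hk2, which encodes hexokinase, was 257 CPM in the parental cells, 396 ± 21 in the TFEB/TFE3 DKO and 80.8 ± 2.5 in the TKO. Its changes there were 0.62 and -1.66 on the log2 scale, and it is also a target of MLXIP and MLX. The study lists Hk2 among the genes that MITF, TFEB and TFE3 themselves bind.

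**Figure D5:**
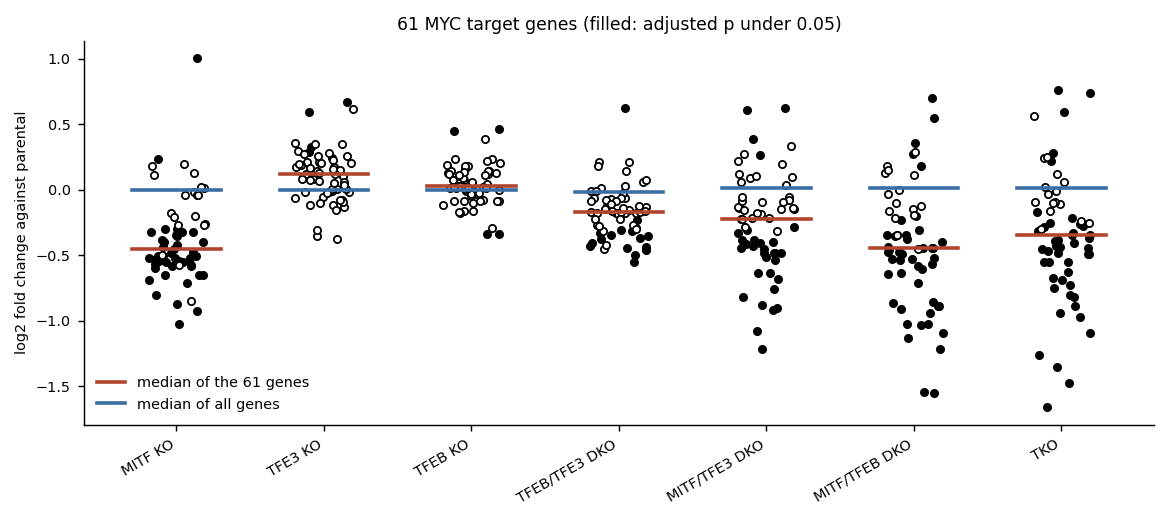
Log2 fold change against the parental cells (y axis) of 61 MYC target genes in the 7 KO lines; filled points have an adjusted p under 0.05, red lines are the medians of the 61 genes and blue lines those of all 12010 genes. The median was -0.45 for the MITF KO against 0.12 for the TFE3 KO.

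Of 18 other basic helix-loop-helix genes in the table, 3 rose and 6 fell in the MITF KO (20.1% and 17.8% of all genes), and 8 and 5 in the TKO (28.3% and 27.9%). For the MITF/TFE3 DKO 4 rose and 5 fell (20.2% and 21.7%), and for the MITF/TFEB DKO 6 and 6 (28.8% and 27.3%). Bhlhe41, the paralog of Bhlhe40, fell from 148 CPM in the parental cells to 77.2 ± 1.7 in the MITF KO and 26.6 ± 1.4 in the TKO (log2 changes -0.93 and -2.44), in the direction of Bhlhe40. Id2, an inhibitor of such factors, did not pass the test in the MITF KO (510 CPM against 471 in the parental cells) but fell by 2.26 in the MITF/TFEB DKO and fell by 2.85 in the TKO. Id3, another inhibitor, rose by 2.20 in the MITF/TFE3 DKO and by 2.0 in the MITF/TFEB DKO. Hes1, a repressor downstream of Notch, rose by 2.41 and Srebf1, a regulator of lipid synthesis, by 1.42 in the MITF/TFEB DKO. Both also rose in the TKO, by 1.38 and 1.74. In the TFE3 KO 0 rose and 1 fell (4.50% and 7.78% of all genes). In the TFEB KO 1 rose and 0 fell (2.25% and 2.59%), as in the TFEB/TFE3 DKO (4.72% and 4.09%).

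Of the 4 targets of MLXIP and MLX in the table, 1 fell in the MITF KO, 1 rose and 2 fell in the MITF/TFEB DKO, 1 rose and 1 fell in the MITF/TFE3 DKO, and 1 fell in the TKO. In each of the other lines 1 rose. With 4 genes such counts can hardly be set against the shares of all genes, which were 17.8 to 27.9% falling and 20.1 to 28.8% rising in the lines without MITF. In the other lines 2.25 to 4.72% of all genes rose. Txnip, which restrains glucose uptake, rose by 1.57 in the MITF/TFE3 DKO (SE 0.60, adjusted p = 0.0389), to 73.3 ± 36 CPM from 23.1 ± 11. Klf10, a repressor, rose by 1.06 in the TFE3 KO. Of 9 clock genes with E-boxes, 3 rose and 1 fell in the MITF KO (20.1% and 17.8% of all genes) and 5 rose in the MITF/TFEB DKO (28.8%), while 2 rose in the MITF/TFE3 DKO (20.2%) and 2 rose and 2 fell in the TKO (28.3% and 27.9%). Dbp, an output gene of the clock, rose by 1.75 to 29.9 ± 2.9 CPM in the MITF/TFEB DKO, from 8.21 in the parental cells. Hlf, of the same family, rose by 1.09 in the TFE3 KO and fell by 0.73 in the TFEB/TFE3 DKO. Of the other clock genes, Cry2 fell by 0.65 in the MITF KO and by 0.64 in the TKO. Per3 rose by 1.02 in the MITF/TFEB DKO at a low level, to 2.21 ± 0.53 CPM from 0.602 ± 0.36 in the parental cells. The clock list had 1 riser in the TFE3 KO (4.50% of all genes rose) and 1 faller in the TFEB/TFE3 DKO (4.09% fell). In the TFEB KO 0 were called by limma (4 at an unadjusted p under 0.05, and 0 by edgeR), where 2.25% of all genes rose and 2.59% fell. The labels give no circadian phase.

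Across the 8 line means, on the log2(CPM + 1) scale and among genes with a mean of at least 5 CPM, the genes most like Myc were Nolc1 (r = 0.99), Grsf1 (0.99) and Ddx47 (0.99). Those most like Mxd4 were Ehd3 (r = 0.99), Bcl6 (0.99) and Dctn2 (0.99). For Bhlhe40 they were Arhgap39 (0.98), Igsf8 (0.97) and Gpr37 (0.96). Ehd3, Bcl6 and Dctn2 all had the lowest line mean in the TFE3 KO and the highest in the MITF/TFEB DKO, as did Mxd4. For Bcl6 these means were 1.97 and 16.7 CPM. Among the 10 genes themselves, Myc went with Bhlhe40 (r = 0.86) and against Mxd4 (-0.93), and Mxd4 against Bhlhe40 (-0.84). These are likenesses over 8 points that share libraries and clones, picked from 9539 genes.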

How the data were processed

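The authors trimmed the reads with Trim Galore 0.6.5 (cutadapt 2.10), aligned them with STAR 2.7.8a to mm39, normalised with edgeR and deposited 1 table of normalised CPM for 12010 genes, counts scaled to library size, a signal that is never negative. The counting tool, annotation, strand setting and filter are not given in the sources used here. Values were steps of whole reads in 99.7 to 99.95% of cases per library (within 0.01 of a read). The unit had been expected to be CPM, and limma was kept.

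limma 3.58.1 was fitted to log2(CPM + 1) with all 24 libraries (16 residual degrees of freedom, variance trend). Fold changes on that scale understate low genes. Alternatives were edgeR 4.0.16 on the recovered reads, pseudocounts of 0.25 and 5, a mean of at least 5 CPM, other scalings, a replicate block, left-out libraries and, added after seeing the data, a term for the within-line component. The fits were tested on simulated data. Named genes were the 10 genes, the deleted genes, at most 5 per list with the largest change and the 3 most alike for each of 3 genes. The 10 genes and the lists were chosen with earlier results of these data known. R 4.3.3, Python 3.11.15 and GENCODE vM39 were used.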

Additional observations from a re-analysis of the deposited data

Results flagged for a closer look

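The change with the loss of MITF differed with a partner factor, by an interaction term adjusted over all genes, for several of the 10 genes. Without TFEB against with TFEB, the differences in log2 change were 1.82 for Mxd4, -0.99 for Mxi1 and 0.79 for Mlxip. Without TFE3 against with TFE3, they were 1.28 for Mxd4, 0.74 for Max, -0.70 for Mxi1 and -0.88 for Bhlhe40. Each arm is 1 clone, and the neighbours of Mxi1 and Max on the chromosome moved with the line. Their part in these differences was not tested.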

How the results depend on the processing

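Of the 160 tests of a gene in a comparison, 57 passed; 34 of these calls were kept whichever library was left out, and 33 also under the other limma and edgeR fits. By the exact permutation test over line means 6 of the 10 calls for the loss of a factor were lost, which leaves 30. A mean of at least 5 CPM left 128 of the 160 tests, without Myc and Usf1. No change of a named gene that passed in either fit turned its sign. By the study's threshold, the count of the 10 genes changed was 1 in the MITF KO, 0 in the TFEB KO, 0 in the TFEB/TFE3 DKO and 2 each in the MITF/TFE3 DKO, the MITF/TFEB DKO and the TKO. From here on, genes are counted by an adjusted p under 0.05 instead, whatever the size of the change. Counted so, the number of the 10 genes changed varied with the fit. With a pseudocount of 5 or quantile normalisation it was 2 in the TFE3 KO. Fits of only the libraries compared gave 1 in the TFEB/TFE3 DKO and 0 in the TFEB KO. With the loss of TFE3 it was 2 by edgeR, 0 with a pseudocount of 5 and 2 among genes with a mean of at least 5 CPM. For the TKO against the MITF/TFEB DKO it was 2 with a pseudocount of 5. With the within-line component as a term it was 3 in the TFE3 KO, 4 with the loss of TFE3, 4 and 7 for the TKO against the MITF/TFEB DKO and the MITF/TFE3 DKO, and 5 for the interaction with TFEB. That component was taken from these same libraries. It left each change as it was and acted on the spread alone, so the added calls are no separate evidence.

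With single libraries left out, the counts ran from 3 to 6 in the MITF KO, 1 to 2 in the TFE3 KO, 1 to 2 in the TFEB/TFE3 DKO, 3 to 4 in the MITF/TFEB DKO, 1 to 3 with the loss of TFEB, 0 to 2 with the loss of TFE3, 3 to 7 and 2 to 4 for the MITF/TFEB DKO and the MITF/TFE3 DKO against the MITF KO, 0 to 2 for the TKO against the MITF/TFEB DKO, and 2 to 5 for the interaction with TFEB. Not every comparison is listed. In the MITF/TFE3 DKO the falls of Mxi1, Usf2 and Mlxip were each lost in some of these fits, as given above. The cause of these shifts was not tested. Replicate numbers 1 to 3 did not pair the libraries (mean correlation 0.02 for the same number and -0.01 for other numbers). The replicate block gave 6 changed genes in the MITF KO and changed 2 calls: Myc with the loss of TFEB (adjusted p = 0.0521) and Mlxip in the TKO against the MITF/TFE3 DKO (adjusted p = 0.0290). Usf1 had 7 to 91 reads per library, and the part of depth in its spread was not tested.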
